A study of Mus musculus with 3 samples.

Results

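The cytosolic ribosomal protein genes were followed through the cell classes of inflamed mouse knee synovium. Members were all gene symbols that start with Rpl or Rps and a digit, with Rplp0, Rplp1, Rplp2 and Rpsa, leaving out pseudogenes and the Rps6k kinases. This gave 87 of 24357 symbols, 53 named for the large (60S) subunit and 34 for the small (40S) subunit. The rule works on names, so it also takes Rps19bp1 and Rpl7l1, which are named after ribosomal proteins without being core subunits. It misses Fau, which encodes a ribosomal protein fused to a ubiquitin-like protein, and Rack1, listed here as Gnb2l1.

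Each of the 3 single-cell libraries held the synovium of 2 pooled mice, 6 mice in all. The mice were wild-type C57BL/6 females, 8 weeks old, with collagen- and antibody-induced arthritis. All had received 100 µg of collagen on day 0, 1 mg of antibody on day 21 and lipopolysaccharide (LPS) on day 22. The libraries form 1 group with no untreated one, so every comparison is between cell classes of the same arthritic joints. The edgeR p-values rest on class differences within 3 pools. The spread they use was estimated over genes together, not from each gene's 3 pools alone.

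A ribosome is built from ribosomal RNA and a single copy of most of these proteins, in 2 subunits that join on a messenger RNA. The small subunit reads the message and the large one forms the peptide bond. Many ribosomal protein messages begin with a 5′ terminal oligopyrimidine tract, a C at the first base followed by an unbroken run of C and T, through which growth signals act on their translation. Ribosome production is high in dividing and growing cells, and granulocytes are known to lower it as they mature.

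The start sites of the genes on which the results turn are shown first, since this tract is the best known shared feature of the family. Each window runs from 10 bases before the annotated start to 20 bases from it, in RefSeq's GRCm38.p6 table, which held 66 of the 87 members. Capitals mark the tract, here a C at the first base and at least 4 more C or T, on the sense strand only.
Rps27 (chr3:90213629-90213658, minus strand): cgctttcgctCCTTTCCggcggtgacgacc
Rps18 (chr17:33955646-33955675, minus strand): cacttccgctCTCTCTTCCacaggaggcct
Rpl35 (chr2:39005112-39005141, minus strand): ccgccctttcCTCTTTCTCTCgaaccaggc
Rps6 (chr4:86857348-86857377, minus strand): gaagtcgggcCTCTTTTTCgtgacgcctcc
Rps9 (chr7:3704031-3704060, plus strand): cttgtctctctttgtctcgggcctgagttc
Rpl37 (chr15:5116603-5116632, plus strand): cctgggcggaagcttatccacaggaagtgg
Rpl36al (chr12:69184048-69184077, minus strand): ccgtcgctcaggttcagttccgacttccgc
Rpsa (chr9:120127756-120127785, plus strand): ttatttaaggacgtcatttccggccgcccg
The tract stood at the annotated start of 14 of the 66 members, 21.2%, against 3.01% of the 27025 genes in the table. A run of 6 or more C or T starting within 5 bases of the start was present in 40.9% of members and 15.9% of all genes. An annotated start can lie some bases from the one a cell uses, so a window without capitals says only that these letters are not at that base.

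Each library held 99782608 to 116125707 UMIs (unique molecules) over 11602 to 15263 barcodes, and 36869 cells passed quality filters. The libraries shared 2602 to 2866 barcode names per pair, which are running cell numbers. Members made up 15.0%, 14.5% and 14.4% of UMIs in libraries 1, 2 and 3, and ribosomal protein pseudogenes 0.0800% to 0.0967%. Marker genes, none of them a member, put 32242 cells into classes, named "-like" since they rest on RNA, and 4627 cells were left out. Between 6 and 14 markers of its own list were counted in each class, at least 6 of them in 10% or more of its cells. Neutrophil markers were also found outside their class, at a median of 0.25% of UMIs in non-cycling monocyte/macrophage-like and 0.247% in fibroblast-like cells. Such counts could come from free RNA, which would add members to droplets of every class, from the cells themselves or from remaining doublets. These sources were not told apart. A limit for free RNA was set in each class from markers of other lineages. Library 3 stood apart in the make-up of the family: 7 members, Rps27 among them, took their lowest share of member UMIs there in all 21 classes described below, and 4 their highest, against 1 and 0 members in library 1 and 0 in library 2. The 1 member in library 1 was Rpl10l, which had 5 UMIs in all and was absent from that library.

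The share of UMIs from ribosomal protein genes differed 4.66-fold between the lowest and the highest of 21 classes with at least 20 cells in each library. Mature neutrophil-like cells were lowest at 4.76% ± 0.55 (SD, n = 3 libraries here and below), with 4.73%, 4.23% and 5.34% in libraries 1, 2 and 3. Immature neutrophil-like cells followed at 6.21% ± 1.48 and erythroid-like cells at 7.09% ± 1.26. These 3 classes lay apart from all others, which began at 13.5% ± 0.82 in macrophage-like cells. In the median erythroid-like cell, however, the 6 erythroid markers alone took 65.7% of UMIs. Medians in immature neutrophil-like cells were 22.7% for the neutrophil markers and 9.79% for the immature markers. In mature neutrophil-like cells the neutrophil markers took a median of 8.44%. The part of such abundant messages in these shares, or in the comparison of immature with mature cells, was not tested.

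**Figure D1:**
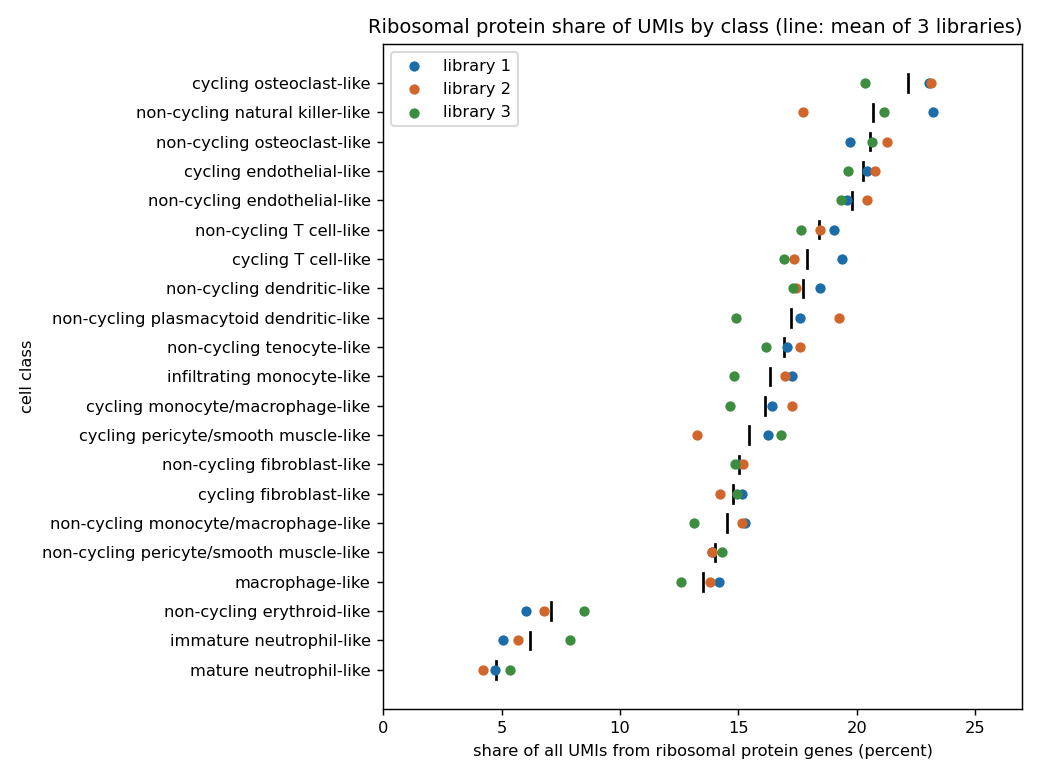
Share of all UMIs that came from ribosomal protein genes (x axis, percent) in each cell class (y axis), with 1 point per library and a line at the mean of 3 libraries. The 2 neutrophil-like classes and the erythroid-like class lie below 9%, and every other class lies above 12%.

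In the middle of the order, stromal and phagocyte classes were close together. Non-cycling fibroblast-like cells, which build the synovial matrix, gave 15.0% ± 0.17, and non-cycling monocyte/macrophage-like cells 14.5% ± 1.19. T cell-like cells stood at 18.4% ± 0.69 and non-cycling endothelial-like cells, the lining of blood vessels, at 19.8% ± 0.56. At the top were cycling osteoclast-like cells, the bone-resorbing lineage, at 22.2% ± 1.61. B cell-like cells were higher still at 24.4%, 24.9% and 23.6%, but library 3 held only 15 of them. Of the 20 neighbouring pairs in this order, 2 had ranges that did not overlap: erythroid-like below macrophage-like, and T cell-like below endothelial-like cells. The other neighbours overlapped and cannot be ranked beyond their spread. Depth moved with the share to some extent: across the 21 classes, Spearman's rho between the mean share and the mean of the libraries' median UMIs per cell was 0.355, a description over classes that share libraries, and its part was not tested.

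The balance of small- and large-subunit genes also varied between classes. The ratio of small- to large-subunit UMIs was 0.920 ± 0.017 in mature and 0.906 ± 0.022 in immature neutrophil-like cells. The nearest classes were dendritic-like cells at 0.887 ± 0.003, within the spread of immature neutrophils, and infiltrating-monocyte-like cells at 0.877 ± 0.005. The ratio was 0.853 ± 0.002 in non-cycling monocyte/macrophage-like, 0.825 ± 0.002 in T cell-like and 0.780 ± 0.009 in fibroblast-like cells. Rps9 alone accounted for 5.43% ± 0.52 of member UMIs in mature neutrophils, as described further on.

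Mature neutrophil-like cells were set against non-cycling monocyte/macrophage-like cells, the other large population of infiltrating myeloid cells. Almost the whole family was lower in the neutrophils. Of 86 members tested, 82 fell and 1 rose, and the members' median log2 difference was -1.50 against -0.02 over all genes tested (edgeR's quasi-likelihood test with library as a block, TMM scaling, Benjamini-Hochberg adjusted p below 0.05). Over all 13608 genes, 38.5% were called lower and 37.1% higher. At least a 2-fold fall was called for 78 members, and for 21.8% of all genes. A median mature neutrophil-like cell carried 77, 76 and 63 member UMIs of 1743, 1873 and 1521 in libraries 1, 2 and 3. Monocyte/macrophage-like cells carried 1156, 1041 and 737 of 7638, 7106 and 5935. Fewer messages per cell and a lower level of each message cannot be told apart from the share alone. In the exact paired permutation test the share itself was lower in 3 of 3 libraries, with p = 0.25, the smallest that 3 libraries allow.

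The lowest members by the naming rule were Rpl36al, Rps18 and Rpl35. Rps18, a protein of the small subunit head, stood at 252, 214 and 370 CPM (UMIs scaled to a common class total) in mature neutrophil-like cells and at 1542, 1501 and 1344 CPM in monocyte/macrophage-like cells. The groups did not overlap, and Rps18 fell by 2.18 on the log2 scale (SE 0.14, adjusted p = 4.23e-10). Here and below, CPM are not TMM-scaled and the log2 differences are, so the 2 can differ in size or sign. Overlap of groups is judged on CPM. Rpl36al, the autosomal copy of Rpl36a, fell by 2.21 (SE 0.16), and Rpl35, at the peptide exit of the large subunit, by 2.16 (SE 0.13). Rps18 overlaps Vps52 on the opposite strand and no source used here says whether counting used strand, but Vps52 had 8169 UMIs in all libraries against 507831 for Rps18. Rpl35 likewise overlaps Arpc5l and Wdr38, which had 14199 and 2757 UMIs.

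Other named members fell by similar amounts. The acidic stalk of the large subunit, which recruits elongation factors, is made of Rplp0, Rplp1 and Rplp2, whose log2 differences were -1.66, -1.51 and -1.45 (SE 0.12 each). Rpl5 and Rpl11, which bind Mdm2 when ribosome assembly fails, were at -1.58 and -1.72. Rps6, the target of S6 kinases, was at -1.46 and Rps19, the gene most often mutated in Diamond-Blackfan anaemia, at -1.99. Rpl13a, part of an interferon-gamma response complex, was at -1.30. Each of these 8 falls had an adjusted p of 2.89e-08 or lower in edgeR and kept its call and direction in all 11 alternatives. The free RNA subtraction among them lowers members that lie below their library-wide share, so it adds no support. With it, Rps19 kept 0, 0 and 528 UMIs in mature neutrophils of libraries 1, 2 and 3, and the size of its fall is not fixed. Alternatives counted per gene, here and below, leave out the 2-fold minimum, which changes the rule for a call and not the fit.

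**Figure D2:**
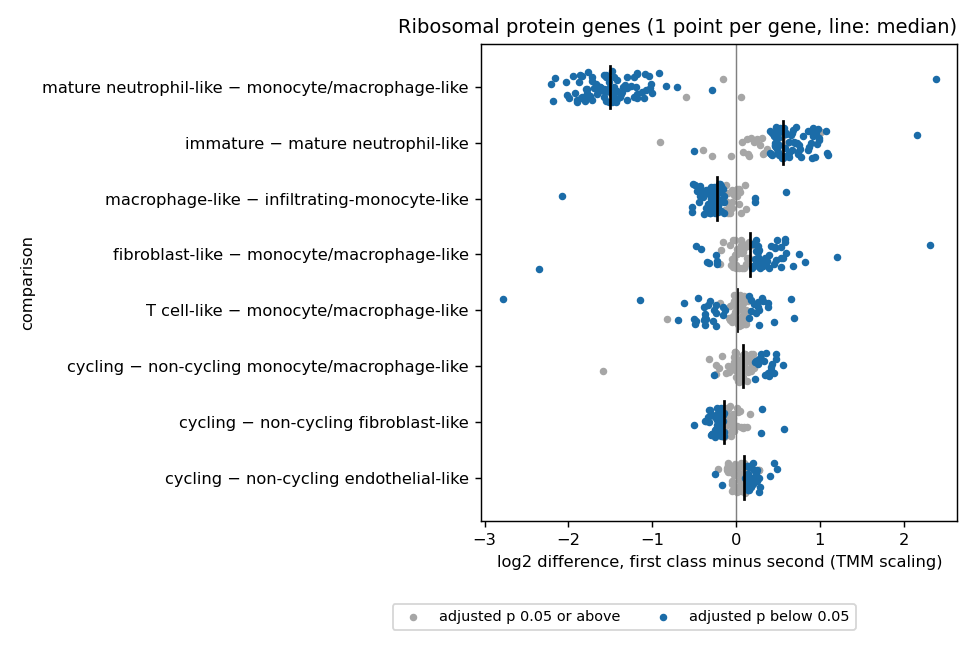
Log2 difference of each tested ribosomal protein gene (x axis, TMM scaling) in 8 comparisons between classes (y axis), with 1 point per gene, blue where the adjusted p was below 0.05, and a line at the median. The mature neutrophil-like comparison has its median at -1.50, and the other medians lie between -0.23 and 0.56.

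A few members did not follow the family. Rps27, a zinc-finger protein of the small subunit, was at 1568, 1387 and 1080 CPM in mature neutrophil-like cells and 2086, 2072 and 1232 CPM in monocyte/macrophage-like cells. The difference, -0.15 on the log2 scale (SE 0.11), did not pass the test (adjusted p = 0.23). With library totals Rps27 was called lower, by -0.39 (adjusted p = 0.00315), as it was without library 3 and with no filter. Rps27rt, which shares 91.6% of its 31-base words with Rps27 so that reads may be split between them, was at 0.06 (SE 0.09, adjusted p = 0.586). Rps9, a small-subunit protein near the message entry site, was chosen after its values were seen. It held 2496, 2545 and 2672 CPM in neutrophils against 3688, 3893 and 3556 CPM, with groups that did not overlap, and had a log2 difference of -0.28 (SE 0.12, adjusted p = 0.0359). That call was kept in 6 of 11 alternatives, over which the difference ran from -0.53 to 0.09. Rpl3l, a copy of Rpl3 best known from muscle, was the single member that rose, by 2.38 (SE 0.16, adjusted p = 1e-09), from 3.12 ± 0.31 to 13.8 ± 1.85 CPM.

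To see changes within the family, members were scaled to the sum of all member UMIs, here called the pool. On this scale 12 members were higher and 24 lower in mature neutrophil-like cells, 36 of 86 in all, where 80.2% of all genes were called either way. The median log2 difference was then -0.14 for members and 1.34 over all genes. The share of all genes thus includes the fall of the whole family and is no plain background for change within it. The same scaling enters each later share of genes called relative to the pool. The number depends on single libraries, with 8, 13 and 59 members called without library 1, 2 and 3. Some leading members did not depend on a single library. Rps9 took 5.28%, 6.02% and 5.01% of the pool in neutrophils and 2.41%, 2.57% and 2.70% in monocyte/macrophage-like cells, a log2 difference of 1.08 (SE 0.16, adjusted p = 1.12e-11). Rps27 took 2.87% ± 0.74 against 1.22% ± 0.25, a difference of 1.22 (SE 0.16), and Rpl37, also chosen after its values were seen, 3.16% ± 0.40 against 1.99% ± 0.085. Rps18, Rpl36al and Rpl35 were lower on the pool scale too, by -0.82, -0.85 and -0.79. Rps9, Rps27, Rps18, Rpl36al and Rpl35 kept their pool-scaled calls in all 9 alternatives, and Rpl37 in 8. The free RNA subtraction among them moves members further from their library-wide pool share and adds no support. With the free RNA limit subtracted, as described below, mature neutrophils kept 0, 0 and 1 UMIs of Rpl35 in libraries 1, 2 and 3. They kept 0, 0 and 333 of Rpl36al and 0 in each library of Rps18. The size of these 3 falls within the pool is therefore not fixed. With a 2-fold minimum Rps9 and Rps27 would still be called, and Rps18, Rpl36al, Rpl35 and Rpl37 would not.

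**Figure D3:**
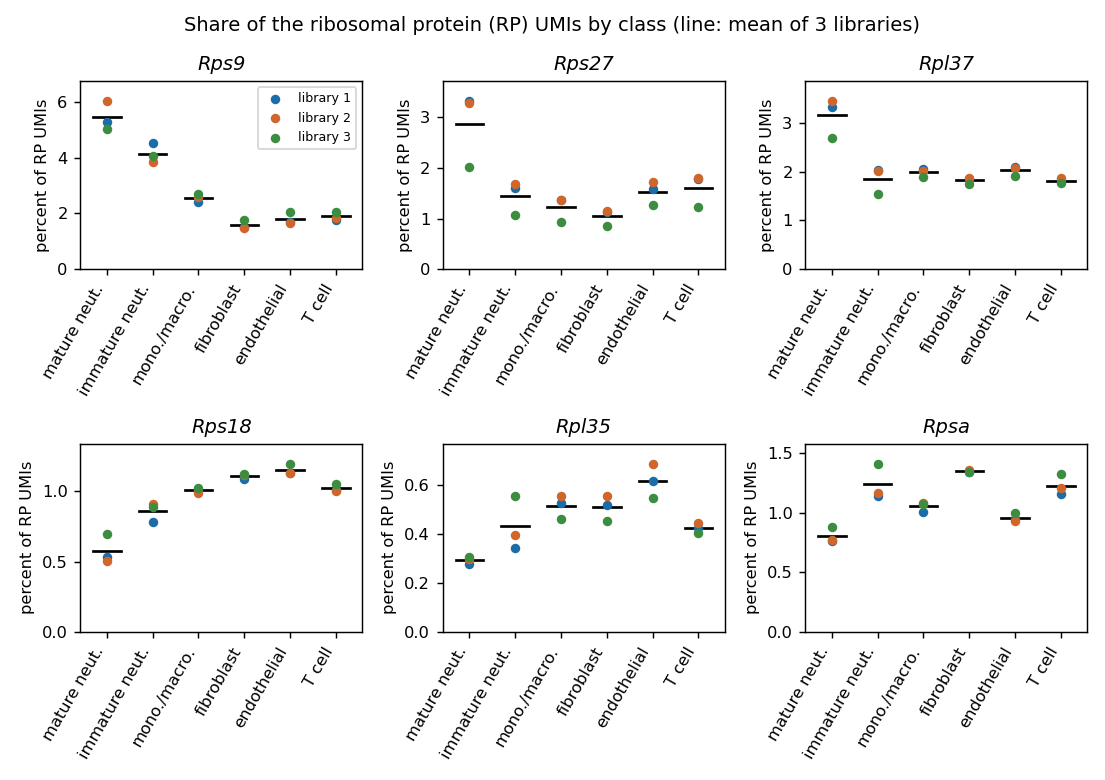
Share of all ribosomal protein UMIs (y axis, percent) taken by 6 genes in 6 classes (x axis), with 1 point per library and a line at the mean of 3 libraries. Rps9, Rps27 and Rpl37 are highest in mature neutrophil-like cells, at means of 5.43%, 2.87% and 3.16%, where Rps18, Rpl35 and Rpsa are lowest, at 0.578%, 0.296% and 0.802%.

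Against the start-site windows shown above, the tract stands at the annotated start of Rps27, with a small difference, and of Rps18 and Rpl35, among the lowest. These genes were picked for their values. The 14 tested members with the tract had a median log2 difference of -1.47 (range -2.18 to 0.06), and the 51 matched members without it there -1.55 (range -2.21 to 2.38). No test was made.

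Free RNA bears on these low values. Its limit was 18.7% to 23.6% of UMIs in mature neutrophil-like cells and 15.4% to 16.9% in monocyte/macrophage-like cells. With it subtracted, the neutrophil share was 2.23%, 1.88% and 2.53%. Rps18 and Rpl22l1 were then at 0 in all 3 libraries, so their level in mature neutrophils was not above what free RNA could give. In at least 1 library 17 members were at 0, but some kept UMIs in another, such as Rps20 with 153, 0 and 784. The size of the fall of these members is not fixed by these data. Among the 17, Rpl10l had 0, 1 and 0 UMIs before the subtraction and was not tested. Rps9 kept 11746 of 15351, 13597 of 17306 and 11728 of 16164 UMIs, and Rps27 kept 7294 of 9643, 6998 of 9433 and 4684 of 6534. Their pool shares rose with the subtraction, to 11.2% ± 1.61 and 5.77% ± 1.54. Subtracting the library-wide profile favours members whose pool share is higher here than in the whole library, so this rise adds no support.

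The related lists moved as follows in this comparison. Of 40 translation factors, 34 fell and 5 rose. The lowest was Eif3e, a subunit of the initiation factor that holds the small subunit (-1.91, SE 0.14), and the highest Eif1, which guards start codon choice (1.83, SE 0.12). Of 41 ribosome biogenesis genes, 36 fell and 3 rose, from the RNA polymerase I subunit Polr1b (-2.44, SE 0.34) to its partner Polr1a (0.85, SE 0.14). Of 76 mitochondrial ribosomal protein genes, here and below a list taken by name only, 70 fell and 3 rose, from Mrps36 (-2.29, SE 0.19) to Mrpl33 (1.09, SE 0.10). Among ribosomal proteins under other names, Gnb2l1 fell by 1.81. Fau did not pass the test (0.17, SE 0.12, adjusted p = 0.211), with 4295, 4197 and 4457 CPM in neutrophils and 4531, 4684 and 4447 CPM in monocyte/macrophage-like cells, which overlap.

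Immature neutrophil-like cells carry granule and precursor markers, and the comparison with mature ones follows the family along neutrophil maturation. Members were higher in the immature cells. Of 86 tested, 65 were higher and 1 lower, with a median log2 difference of 0.56 against -0.09 over all genes, of which 11.3% were called higher and 20.6% lower. Scaling to library totals gave 50 higher and 3 lower, and leaving out library 2, which holds 256 of the 360 immature cells, left 36 called. The summed share was higher in 3 of 3 libraries, at 5.05%, 5.69% and 7.88% against 4.73%, 4.23% and 5.34% (exact paired permutation p = 0.25). A second measure did not give the same order: the share in the median cell was 3.88%, 4.13% and 5.19% in immature and 4.32%, 4.01% and 4.05% in mature cells, so library 1 went the other way. With Leiden clusters in place of marker gates the mean shares were 4.13% in immature and 4.20% in mature cells, so the direction turned. These classes hold other cells, however. The Leiden mature class did not leave out cells between the states, and 464 of the 982 cells in the immature cluster were gated as immature. Immature cells were also deeper, with medians of 6803, 5441 and 3489 UMIs. With every cell thinned to 1000 UMIs the mean shares were 5.24% in immature and 4.22% in mature cells, and 42 members were called.

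**Figure D4:**
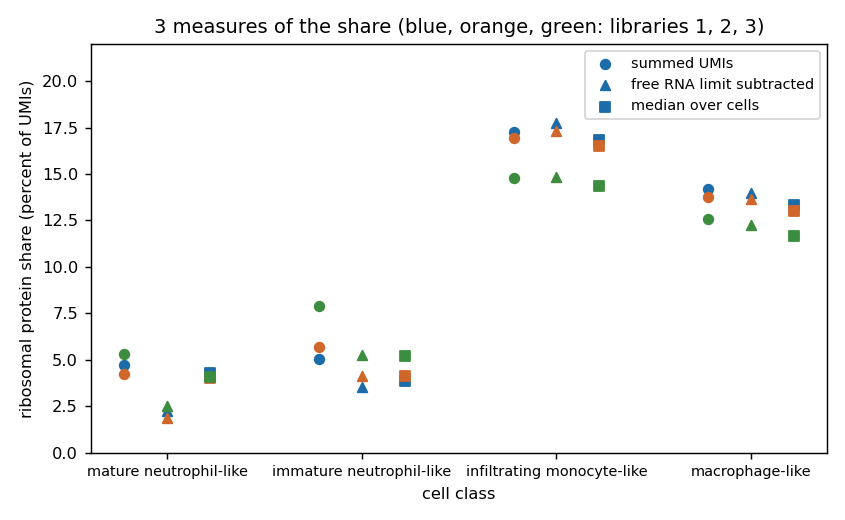
Ribosomal protein share of UMIs (y axis, percent) in 4 myeloid classes (x axis), from summed UMIs (circles), after the free RNA limit was subtracted (triangles) and as the median over cells (squares), with 1 point per library. Both neutrophil-like classes lie below 8% by every measure and both phagocyte classes above 11%. The order of immature and mature neutrophil-like cells depends on the measure.

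By gene, Rpsa, a small-subunit protein also known as the laminin receptor, stood at 575, 665 and 1112 CPM in immature and 359, 325 and 469 CPM in mature neutrophil-like cells. The groups did not overlap, and Rpsa was higher by 1.10 (SE 0.15, adjusted p = 7.26e-12), in 11 of 11 alternatives. With the free RNA limit subtracted, Rpsa kept 19 of 2207, 0 of 2209 and 139 of 2835 UMIs in mature cells. The size of its difference is therefore not fixed, and its call under this alternative adds no support. Rpl22l1, a copy of Rpl22, was higher by 1.09 (SE 0.20), with 72, 101 and 64 against 45, 43 and 43 CPM. Its level in mature cells was not above the free RNA limit, so the size of this difference is not fixed. Rpl39l, a copy of Rpl39 best known from the testis, had the largest difference, 2.16 (SE 0.59, adjusted p = 0.00131), but at 20, 5 and 6 against 2, 2 and 5 CPM. Rps27 was the 1 member called lower, by -0.50 (SE 0.16, adjusted p = 0.00508), at 810, 953 and 845 against 1568, 1387 and 1080 CPM. Rpl37, the next lowest by the naming rule, did not pass the test (-0.29, adjusted p = 0.146).

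Relative to the pool, 7 members were higher and 5 lower in immature cells, 12 of 86, where 37.5% of all genes were called either way. The median on this scale was 0.08 for members and -0.58 over all genes. Without library 2 the count was 3, and without library 3 it was 5. Rps27 was lower by -0.98 (SE 0.21, adjusted p = 1.25e-05), a call kept in all 9 alternatives but just under a 2-fold minimum, Rpl37 by -0.77 and Rps27rt by -0.84. Rpsa was higher by 0.62 and Rps18 by 0.59, sizes that are not fixed, since both were at or near the free RNA limit in mature cells. Among the other lists, 10 of 40 translation factors were higher and 3 lower, from Eif3e (1.08) to Eif1 (-1.18). Of 39 ribosome biogenesis genes 1 was called, Sbds, which releases a factor from new large subunits and was lower (-0.92). Of 74 mitochondrial ribosomal protein genes, 12 were higher and 4 lower. Fau was lower by -0.77, and Gnb2l1 was higher by 0.54.

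Within the phagocytes, macrophage-like cells were set against infiltrating-monocyte-like cells. Macrophage-like cells had the lower share in 3 of 3 libraries, 14.2%, 13.8% and 12.6% against 17.3%, 17.0% and 14.8% (exact paired permutation p = 0.25). Of 86 members, 60 fell and 3 rose, with a median of -0.23, against 22% of all genes called lower and 20.4% higher. Without library 1 there were 24 calls, and without library 2 there were 39. Rps6 was at 945, 948 and 760 CPM in macrophage-like and 1385, 1401 and 1152 CPM in monocyte-like cells, groups that did not overlap, and fell by 0.52 (SE 0.05, adjusted p = 4.24e-06). Rpsa fell by 0.52 (SE 0.05), and Rpl3l, at low counts, by 2.08 (SE 0.23). The 3 that rose were Rps27l, a p53-responsive copy of Rps27 (0.23, SE 0.05), Rpl39l (0.59, SE 0.19) and Rps19bp1 (0.23, SE 0.08). Relative to the pool, 23 members were higher and 20 lower, where 47.9% of all genes were called, and 23 members were called without library 1. In the biogenesis list 13 of 41 rose and 2 fell.

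Fibroblast-like cells and monocyte/macrophage-like cells had similar shares, and single members differed between them. The share was 15.0%, 15.2% and 14.8% in non-cycling fibroblast-like cells and 15.3%, 15.1% and 13.1% in non-cycling monocyte/macrophage-like cells, with overlapping ranges (exact paired permutation p = 0.75). By gene 42 members were higher and 8 lower, against 39.8% and 38% of all genes. Scaling to library totals made this 27 and 21, and moved the median of all genes by -0.16. Relative to the pool 22 were higher and 29 lower, where 75.4% of all genes were called, and without library 2 the 51 calls became 29. Members were thus not called more often than all genes.

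The copies led the list on the high side. Rpl39l stood at 21, 24 and 23 CPM in fibroblast-like cells and 6, 5 and 4 CPM in monocyte/macrophage-like cells, higher by 2.32 (SE 0.12, adjusted p = 4.17e-09). Rpl22l1 stood at 328, 335 and 253 against 175, 150 and 121 CPM, higher by 1.20 (SE 0.07), while Rpl22 itself did not pass the test (-0.01, SE 0.07, adjusted p = 0.909). Rpl12, near the stalk base, was higher by 0.82 (SE 0.08), and the stalk proteins Rplp1 and Rplp0 by 0.75 and 0.58, but Rplp2 was at -0.04 (adjusted p = 0.685). On the low side were Rpl3l (-2.35, SE 0.24), Rps9 (-0.48, SE 0.09) and Rps29 (-0.42, SE 0.08). Rpl39l, Rpl22l1 and Rpl12 kept their calls in all 11 alternatives, but Rpl12 lies under a 2-fold minimum. In fibroblast-like cells Fau fell by 0.94 (SE 0.09).

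T cell-like cells had a higher share than monocyte/macrophage-like cells in 3 of 3 libraries, 19.0%, 18.5% and 17.7% against 15.3%, 15.1% and 13.1% (exact paired permutation p = 0.25). By gene the direction depended on scaling. With TMM scaling 17 of 86 members were higher and 24 lower, against 24.3% and 27.2% of all genes. With library totals 63 were higher and 3 lower, and the median of all genes moved by 0.35. Relative to the pool, 19 members were higher and 24 lower, where 51% of all genes were called, so the members' share is near the background. Rpl13a stood at 4702, 4361 and 4625 CPM in T cell-like cells against 2210, 2207 and 2209 CPM, higher by 0.70 (SE 0.05, adjusted p = 1.34e-07). Rpl12 was higher by 0.65 (SE 0.06) and Rps15a by 0.46 (SE 0.06). Rps27l was lower by 1.15 (SE 0.08, adjusted p = 6.84e-08), at 202, 210 and 228 against 383, 354 and 374 CPM, with groups that did not overlap. Rpl13a, Rpl12 and Rps27l kept their calls under both scalings.

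Cycling cells were set against non-cycling cells of the same class to ask whether the family rises with division. The shifts were small. The share of UMIs was higher in cycling cells in 3 of 3 libraries for monocyte/macrophage-like cells (by 1.59 points ± 0.48) and endothelial-like cells (by 0.476 points ± 0.30), each with an exact paired permutation p of 0.25. For fibroblast-like cells it was higher in 2 of 3, with a mean difference of -0.24 points ± 0.62 (exact paired permutation p = 1). In monocyte/macrophage-like cells 20 of 86 members were higher and 1 lower, against 10.3% and 9.98% of all genes, with a median log2 difference of 0.09. In endothelial-like cells 30 of 85 were higher and 2 lower, against 16.2% and 12.5%, with a median of 0.10. In fibroblast-like cells 3 of 85 were higher and 39 lower, against 19.8% and 17.2%, with a median of -0.14. In the same order of classes, scaling to library totals gave 32 higher and 0 lower, 14 and 9, and 10 and 13. These counts rest on few cells. The monocyte/macrophage-like count was 9 without library 1 and also without library 2, the endothelial-like count 11 without library 1, and the fibroblast-like count 27 without library 2. In the same order, cycling cells had mean median depths of 13257, 29663 and 21081 UMIs against 6893, 10119 and 11672 in non-cycling cells, and the part of depth was not tested.

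The difference between the cycling shift of fibroblast-like and monocyte/macrophage-like cells was tested as an interaction. It was lower in fibroblast-like cells for 23 of 86 members, against 4.46% of all genes (edgeR's quasi-likelihood test, Benjamini-Hochberg adjusted). This count did not hold: it was 0 without library 1 or 2, and 44 without library 3.

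Within the pool, 10 of 85 members were called in the same direction in all 3 classes, against 8.73% of all genes tested in the 3. Without library 1, 2 and 3 in turn, 3, 5 and 6 of 85 remained, all among these 10, against 5.69%, 7.1% and 7.55% of all genes. The count of members was thus close to the share of all genes, and the 10 are listed as a description. Rps27l, Rps2, Rpsa, Rpl35 and Rpl14 were higher, and Rps27, Rps27rt, Rps14, Rpl10 and Rpl17 lower. The 3 comparisons use different cells of the same libraries. Calls relative to the pool were 12 higher and 9 lower in monocyte/macrophage-like cells, 12 and 12 in fibroblast-like cells and 10 and 15 in endothelial-like cells, where 23.2%, 36.9% and 29.7% of all genes were called. These counts fell to 12 and 10 without libraries 1 and 2 in monocyte/macrophage-like cells, to 11 and 14 without libraries 1 and 3 in fibroblast-like cells, and to 8 without library 1 in endothelial-like cells. Rps27l was at 494, 576 and 520 CPM in cycling and 383, 354 and 374 CPM in non-cycling monocyte/macrophage-like cells. It was at 482, 402 and 500 against 352, 319 and 357 CPM in fibroblast-like cells, and at 452, 429 and 403 against 321, 312 and 321 CPM in endothelial-like cells. The groups did not overlap in any class, and the log2 differences were 0.47 (SE 0.10), 0.30 (SE 0.06) and 0.49 (SE 0.07). Its parent Rps27 was lower in the 3 classes, by -0.26 (SE 0.08), -0.31 (SE 0.05) and -0.25 (SE 0.06). Rps19bp1 was the highest member in cycling fibroblast-like cells, at 0.57 (SE 0.07, adjusted p = 7.32e-05).

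Other genes that build and use ribosomes can be read against the same shares of all genes called higher, 10.3%, 19.8% and 16.2% in monocyte/macrophage-, fibroblast- and endothelial-like cells. Ribosome biogenesis genes were called higher for 18, 25 and 24 of 41 in that order. The leading ones were Dkc1, the pseudouridine synthase of ribosomal RNA (1.49, SE 0.24), Lyar (0.94, SE 0.08) and Nop56, a core protein of the RNA-guided methylation complex (1.14, SE 0.11). Mitochondrial ribosomal protein genes were higher for 30, 36 and 40 of 76, led by Mrpl51 (1.13, SE 0.13) and Mrpl18 (1.03, SE 0.07, and 0.86, SE 0.09). Translation factors were higher for 14, 17 and 21 of 40, and lower for 2, 8 and 2.

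Across all 21 classes most of the family kept a stable place in the pool. The ratio between the highest and the lowest class mean was below 2 for 68 of the 85 members with UMIs in every class, with a median of 1.63. Apart from copies and namesakes with few UMIs, the widest were Rps27 (3.69), Rps9 (3.56) and Rps27l (3.40). Rps9 ranged from 1.53% ± 0.11 of the pool in cycling fibroblast-like to 5.43% ± 0.52 in mature neutrophil-like cells. Mature neutrophil-like cells were the highest class for 14 members and the lowest for 28. Rpl10l, a copy known from the testis, had 5 UMIs in all libraries together, in 2 of them, and was not tested.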

How the data were processed

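Per the labels' protocols, the DNBelab C kit and a DNBSEQ-T7 sequencer were used. The deposited values are raw UMI counts, and per the file headers PISA 1.0 produced them. Seurat 3.0.2, R 3.6 and GRCm39 are named in the submitters' processing notes. No source used here names the aligner or the annotation.

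A minimum of 200 genes and a maximum of 20% mitochondrial UMIs removed 82 barcodes, and 1853 doublets (Scrublet score of 0.2 or more, scanpy 1.11.5) were removed. Classes came from marker genes, none a member: a cell needed 30% of a list, at least 3 markers and a lead of 5 points, with a marker counted at over 1.5 times its library-wide share. Cycling cells needed 30% of the cycling list and non-cycling cells none, which left out 1038 cells in between, with 2065 between mature and immature neutrophils. These thresholds were set after marker counts were seen, and 559 cells lay near the lead limit.

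UMIs were summed per class and library and tested with edgeR 4.0.16 (quasi-likelihood, TMM, filterByExpr, library as a block because both classes come from the same 2 mice) with Benjamini-Hochberg adjustment over all genes tested. The pool scaling sets library size to the sum of member UMIs. Named members were the 3 highest and 3 lowest with the same sign in every library, plus a list of 20 members. Members and lists were chosen with earlier results of these data known. Alternatives were library totals, no filter, no block, DESeq2 1.42.0, each library left out, doublets kept, cells thinned to 1000 UMIs, Leiden clusters, the free RNA limit subtracted and a 2-fold minimum. The free RNA subtraction removes a part of the library-wide profile, so it can widen a difference already present, and a call kept under it adds no support. The edgeR script was tested on simulated data. A gene of the list of ribosomal proteins under other names is not reported here.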

Additional observations from a re-analysis of the deposited data

Results flagged for a closer look

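The effect of cycling in fibroblast-like and monocyte/macrophage-like cells was compared in an interaction test (edgeR's quasi-likelihood test, Benjamini-Hochberg adjusted), whose calls did not hold across settings. For 23 of 86 members the difference between cycling and non-cycling cells was lower in the fibroblast-like class, against 4.46% of all genes. By log2 difference the leading members were Rpl36a (-0.70, adjusted p = 0.00282), Rpl22l1 (-0.63, adjusted p = 0.00532) and Rpl12 (-0.60, adjusted p = 0.0104). The count was 0 without library 1, 0 without library 2 and 44 without library 3. It was also 0 with no library block, 0 with free RNA subtracted and 1, in the other direction, with doublets kept.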

How the results depend on the processing

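Over 1851 gene values recomputed under alternatives, 1610 kept their direction and side of the threshold, 174 lost their call, 60 gained one and 7 turned direction. The turned values were Rpl39 in immature against mature neutrophils (-0.025 with Leiden classes), Rps19bp1 in macrophage-like cells (-0.10 thinned) and, in T cell-like cells, Rpl22 (0.35), Rplp0 (0.32), Rplp2 (0.31) and Rps19 (0.20) with library totals and Rplp1 (-0.13) with no filter. The cause was not tested for these or the values below. The immature neutrophil share was 4.13% with Leiden classes and 4.30% with free RNA subtracted. The mature share was 5.46% with doublets kept, 4.20% with Leiden classes and 2.21% with free RNA subtracted. The fibroblast share was 14.6% thinned and 15.3% with Leiden classes.

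Counts of called members are given with the reported value first and the pool-scaled count second. Immature against mature neutrophils (66 and 12) gave 36 to 65 and 3 to 15 with 1 library left out, 42 and 20 thinned, and 4 and 2 with a 2-fold minimum, and the pool count was 7 with no filter and 45 with free RNA subtracted. Mature neutrophils against monocyte/macrophage-like cells (83 and 36) gave 82 to 85 and 8 to 59 with 1 library left out, and the pool count was 23 with doublets kept, 63 thinned, 62 with Leiden classes, 55 with free RNA subtracted and 4 with a 2-fold minimum. Macrophage- against monocyte-like cells (63 and 43) gave 24 to 70 and 23 to 48 with 1 library left out and 1 and 1 with a 2-fold minimum, and the pool count was 26 thinned. Fibroblast-like cells (50 and 51) gave 41 to 52 and 29 to 62, and 3 and 2 with a 2-fold minimum. T cell-like cells (41 and 43) gave 31 to 36 and 34 to 41, 66 with library totals, and 2 and 2 with a 2-fold minimum.

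Cycling monocyte/macrophage-like cells (21 and 21) gave 9 to 23 and 10 to 18 with 1 library left out, and 32 with library totals. Cycling fibroblast-like cells (42 and 24) gave 27 to 38 and 11 to 23, 23 with library totals and 22 with Leiden classes. Cycling endothelial-like cells (32 and 25) gave 11 to 31 and 8 to 23, 11 with DESeq2 and 21 with free RNA subtracted. With a 2-fold minimum these 3 comparisons gave 0 and 0. The cycling difference (23) gave 0 to 44, 6 with library totals, and, in the other direction, 2 with no filter, 1 with doublets kept and 6 with Leiden classes, then 0 with free RNA subtracted and 0 with a 2-fold minimum. Thinning was not run for these 4, since sums fell under 20 cells.

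The library block pairs both classes of the same mice. With no replicate block, the counts were 4 and 0 in cycling monocyte/macrophage-like, 9 and 4 in cycling fibroblast-like and 5 and 2 in cycling endothelial-like cells. They were 16 and 3 in macrophage-like and 11 and 19 in T cell-like cells, 23 for the fibroblast-like pool and 0 for the cycling difference.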

Other observations

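Classes with few cells fell outside the comparisons. Cycling granulocyte/monocyte progenitor-like cells, the precursors of neutrophils, had 50427 member UMIs of 201635 in library 1, from 8 cells, and 127931 of 648595 in library 2, from 29 cells. Cycling immature neutrophil-like cells gave 7.61%, 8.51% and 12.5% from 8, 92 and 5 cells. Fau, a ribosomal protein gene outside the naming rule, had as many UMIs as 9.12% ± 0.79 of the member sum in mature neutrophil-like cells, against 3.15% ± 0.21 in non-cycling monocyte/macrophage-like cells (SD, n = 3 libraries). In erythroid-like cells the summed share was 6.01%, 6.78% and 8.48%, while the median cell gave 1.99%, 2.10% and 2.12%.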
